A study of Mus musculus with 4 samples.

Results

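The locus described here is the last megabase of mouse chromosome 7 that holds Ccnd1 and Fgf15, taken as every genomic probe that starts between 151.5 and 152.5 Mb on mm9. It was covered by 89 probed positions of 170305 on the array, spaced 9720 bases apart in the median, and 78 of them carried 1 of 14 gene names. Of these positions 1 carried the name Ccnd1 and 1 the name Fgf15. Copy number was measured by array comparative genomic hybridisation, in which tumour DNA in Cy5 and reference DNA in Cy3 compete for the same probes. The probes of the locus are 56 to 60 bases long. Every value below is a log2 ratio of tumour over reference centred on the autosomal median, unless said otherwise. The tested samples were 4 liver tumours, each from a separate untreated male C57BL/6J mouse with a liver-specific loss of Trp53, which encodes the p53 tumour suppressor. The reference on every array was a pool of spleen DNA from 3 sex-matched littermates per the series' design, while the labelling protocol names liver, and both channels are labelled Trp53-/- and male. The driver of the deletion, the age of the mice and the share of tumour cells in each sample are not given in the sources used here. The labels describe the reference alike on all 4 arrays and do not say whether it was 1 and the same pool. With bulk DNA a copy change in few cells and a smaller one in many cells cannot be told apart.

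Cyclin D1, the product of Ccnd1, binds CDK4 or CDK6 and starts the phosphorylation of the retinoblastoma protein that lets a cell enter S phase. Fgf15, whose human partner is FGF19, encodes an intestinal hormone that acts on the liver through the receptor FGFR4 with the co-receptor beta-Klotho and lowers bile acid synthesis by repressing Cyp7a1. In human tumours, liver cancer among them, the partner region 11q13 is a known site of amplification in which CCND1 and FGF19 lie side by side. The comparison here asks whether the mouse locus stood apart from the rest of chromosome 7, and from other regions whose probes have a similar share of G and C, since the locus lies near the chromosome end.

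The positions named for the 2 genes are shown first, with 3 others on which the results below turn: the Fgf3 probe had the lowest and the probe of the transcript ENSMUST00000093964, beside Ccnd1, the highest own mean of the 14 names, and the AK090059 probe was the 1 position of the locus past the test across all probes. Each is printed as the array files give it, in lower case with G and C in capitals, since the share of these bases is a quantity the comparison turns on.
Ccnd1 probe, chr7:152119601-152119660 (mm9): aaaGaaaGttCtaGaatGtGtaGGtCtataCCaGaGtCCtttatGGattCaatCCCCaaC
Fgf15 probe, chr7:152084123-152084182 (mm9): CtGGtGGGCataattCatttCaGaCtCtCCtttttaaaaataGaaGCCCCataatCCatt
Fgf3 probe, chr7:152028049-152028108 (mm9): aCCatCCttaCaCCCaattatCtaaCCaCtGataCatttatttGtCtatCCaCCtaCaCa
ENSMUST00000093964 probe, chr7:152109234-152109292 (mm9): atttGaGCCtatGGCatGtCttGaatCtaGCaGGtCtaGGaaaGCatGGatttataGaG
AK090059 probe, chr7:152418187-152418246 (mm9): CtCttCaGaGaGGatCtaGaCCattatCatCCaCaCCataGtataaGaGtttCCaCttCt
G and C made up 38.3% of the Ccnd1 probe, 36.7% of the Fgf15 and Fgf3 probes, 40.7% of the ENSMUST00000093964 probe and 40.0% of the AK090059 probe. Whether they are exonic or intronic is not given here, since no mm9 annotation entered the work.

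The locus stood highest in tumour 1 and near the autosomal median in the other 3 tumours. Its mean over 89 probes was 0.23, 0.031, -0.030 and 0.035 in tumours 1, 2, 3 and 4, with a standard error over probes of 0.027, 0.035, 0.017 and 0.019. In tumour 1 that is a linear ratio of 1.17, and 73 of the 89 probes (82.0%) were above 0. In tumour 3, 38 of the 89 probes were above 0. For scale, 3 copies in place of 2 in every cell would give 0.58, and chromosome 15, the chromosome with the most bins above the locus in tumour 1, averaged 0.27, 0.28, 0.089 and -0.0036 in tumours 1 to 4.

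Over the 4 tumours the locus averaged 0.065 ± 0.11 (SD, n = 4), which is smaller than the spread between the tumours. The moderated limma test across 2548 bins of 1 Mb gave an adjusted p of 0.55, with a 95% interval of the mean of -0.054 to 0.18, and 0% of all bins passed at an adjusted p under 0.05 (315 bins had an unadjusted p under 0.05). The two-sided exact sign-flip test over the 4 tumours gave p = 0.25, where 0.125 is the smallest p that 4 tumours allow. Without tumour 1 the mean of the locus was 0.012 (limma adjusted p = 0.90).

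**Figure D1:**
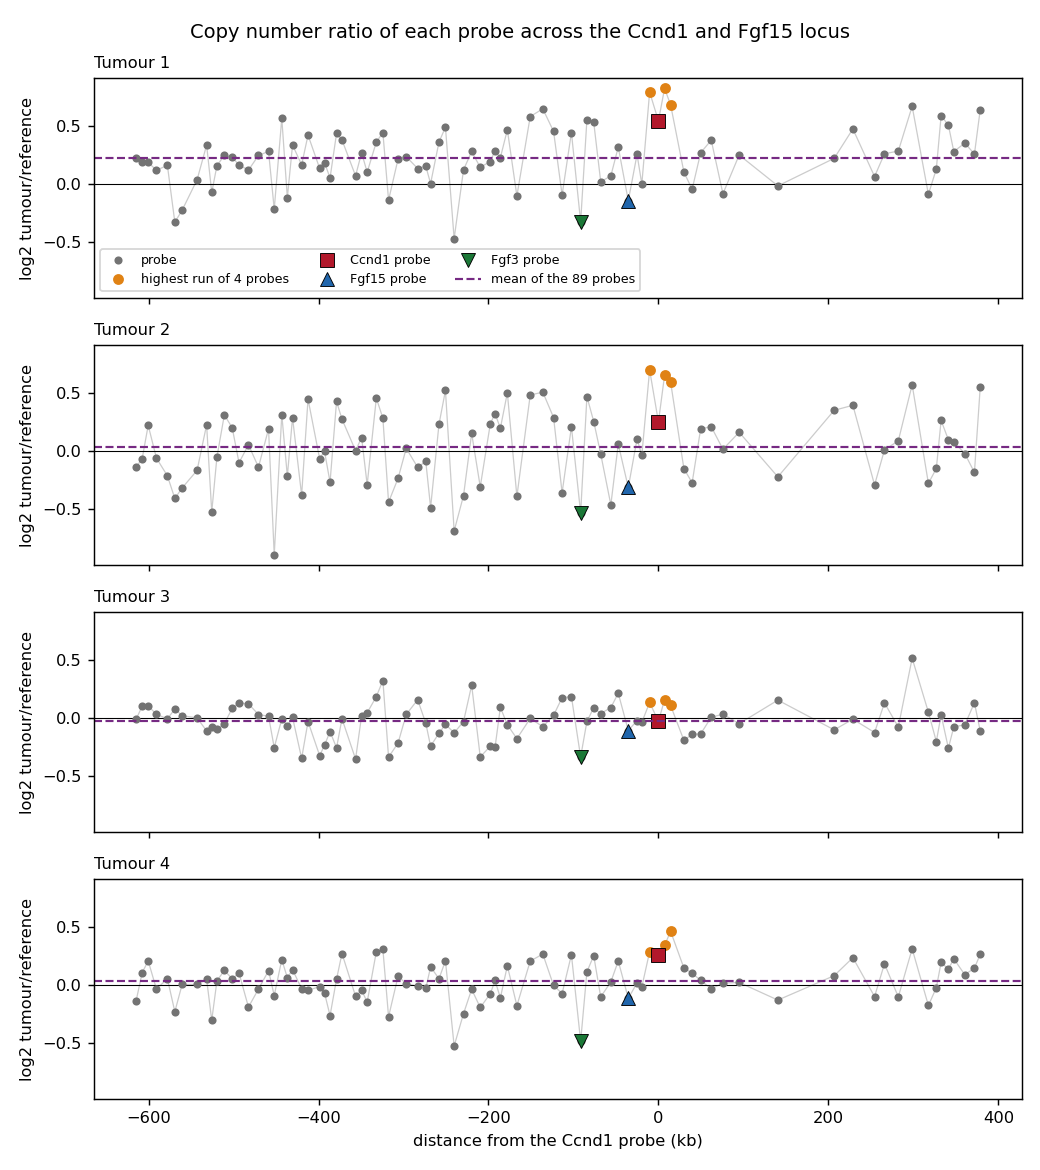
Each point is the log2 tumour over reference ratio of 1 probe of the locus, plotted by its distance from the Ccnd1 probe in kb, with 1 panel per tumour. The dashed line is the mean of the 89 probes (0.23, 0.031, -0.030 and 0.035 in tumours 1 to 4), and the Ccnd1, Fgf15 and Fgf3 probes and the highest run of 4 neighbouring probes are marked; the Fgf15 and Fgf3 probes stand below the dashed line in all 4 panels.

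Set against the rest of chromosome 7, the locus was higher in 3 of 4 tumours. It was at 0.23 in tumour 1, against 0.0091 over the other 9744 probes of the chromosome. It was at 0.031 in tumour 2, against -0.046 for the rest of the chromosome. In tumour 3 it was at -0.030, against -0.012, and in tumour 4 at 0.035, against -0.019. In tumour 1 it was the highest of the 137 bins of chromosome 7, and in tumours 2, 3 and 4 it ranked 10, 90 and 9 among them.

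The 4 differences from the chromosome were 0.22, 0.078, -0.017 and 0.054, with a mean of 0.083 ± 0.098 (SD, n = 4). Their limma adjusted p was 0.44 (95% interval -0.0076 to 0.17), where 0.157% of 2548 bins passed, and the exact sign-flip p was 0.25. Without tumour 3 the mean difference was 0.12 with a limma adjusted p of 0.019, but 28.1% of all bins passed the test in those 3 tumours. Without tumour 1 it was 0.038 (adjusted p = 0.73).

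Among all 2394 other autosomal bins, 63 were higher than the locus in tumour 1, and 61 of those 63 lay on chromosome 15. The other 2 lay at chr4:155500001-156500000 with 0.25 and at chr10:79500001-80500000 with 0.24. The bins above the locus made up 2.63%, 25.6%, 70.6% and 6.52% of the other autosomal bins in tumours 1, 2, 3 and 4.

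The segmentation of each tumour's chromosome 7 set no boundary inside the window. In tumour 1 the locus lay in a final segment of 260 probes, chr7:149544620-152520747, with a mean of 0.18, just under the 0.2 at which a segment was called gained. In tumours 3 and 4 the final segment held 381 probes, chr7:148245829-152520747, at -0.042 and 0.028. In tumour 2 it held 6530 probes, chr7:67945888-152520747, at -0.040. The locus was therefore called gained in 0 of 4 tumours. It was called gained in 1 tumour, tumour 1, when the threshold was 0.1 or when the background was corrected with normexp.

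**Figure D2:**
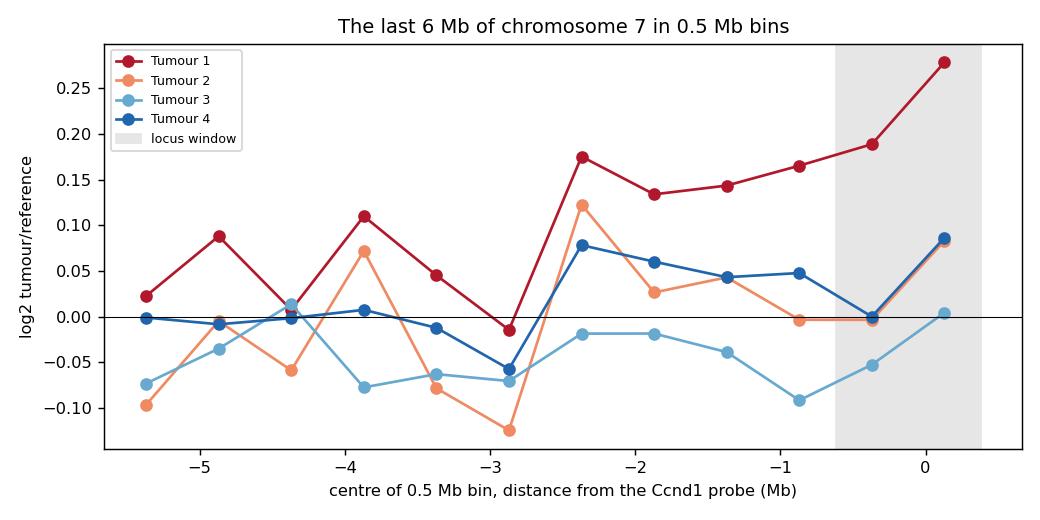
Mean log2 tumour over reference ratio of 0.5 Mb bins over the last 6 Mb of chromosome 7, by distance of the bin's centre from the Ccnd1 probe in Mb, with 1 line per tumour and the locus window shaded; the 2 probes beyond the window are left out. The last bin is at 0.28, 0.083, 0.0042 and 0.086 in tumours 1 to 4, the highest of the 12 bins in tumours 1 and 4. Tumour 1 lies above the other 3 tumours in every plotted bin except chr7:147500001-148000000, where tumour 3 is higher.

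The stretch with Ccnd1 and Fgf15 was higher than the stretch before it in each tumour. The last 0.5 Mb of the window (36 probes) was at 0.28, 0.083, 0.0042 and 0.086 in tumours 1 to 4, and the first 0.5 Mb (53 probes) at 0.19, -0.0036, -0.053 and -0.000088. Tested as a bin of 0.5 Mb, the last stretch had a mean of 0.11 (limma adjusted p = 0.37), and 0.13 relative to the rest of the chromosome (adjusted p = 0.25). The last position of the window, at chr7:152498325, read 0.65, 0.56, -0.11 and 0.27. Beyond it the Mrgprd probe read 0.20, -0.22, -0.20 and 0.15, and the last probe of the chromosome -0.41, -1.10, -0.039 and -0.66, which is below 0 in all 4 tumours. At the other edge the first position inside, a Shank2 probe, read 0.23, -0.14, -0.0096 and -0.13, and the Shank2 probe just before it 0.36, 0.15, 0.089 and 0.19.

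The Ccnd1 probe read 0.55, 0.25, -0.029 and 0.26 in tumours 1, 2, 3 and 4. It was above 0 in 3 of 4 tumours, with a mean of 0.26 ± 0.24 (SD, n = 4), and tumour 3 was the 1 tumour in which it was not. In the fit across all 170305 probes its adjusted p was 0.14 (limma), so it did not pass. Averaged with all probes within 50 kb on each side (11 probes), the Ccnd1 gene value was 0.33, 0.16, -0.0043 and 0.16. The mean of that value was 0.16 ± 0.14 (SD, n = 4), with a limma adjusted p of 0.21 across 20795 gene items and an unadjusted p of 0.027.

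The Fgf15 probe read -0.14, -0.32, -0.11 and -0.11 in tumours 1, 2, 3 and 4. It was below 0 in all 4 tumours, with a mean of -0.17 ± 0.098 (SD, n = 4; limma adjusted p = 0.17 in the fit across probes). The Fgf15 gene value over the 12 probes within 50 kb was 0.37, 0.19, 0.051 and 0.15, above 0 in all 4 tumours, with a mean of 0.19 ± 0.13 (SD, n = 4; limma adjusted p = 0.19, unadjusted p = 0.014). The sign of the value thus turned with the flank, and 8 of those 12 probes also enter the Ccnd1 gene value, since the 2 probes start 35478 bases apart. Of all gene items 0.0433% passed at an adjusted p under 0.05, and 5.99% were higher in the tumour at an unadjusted p under 0.05.

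**Figure D3:**
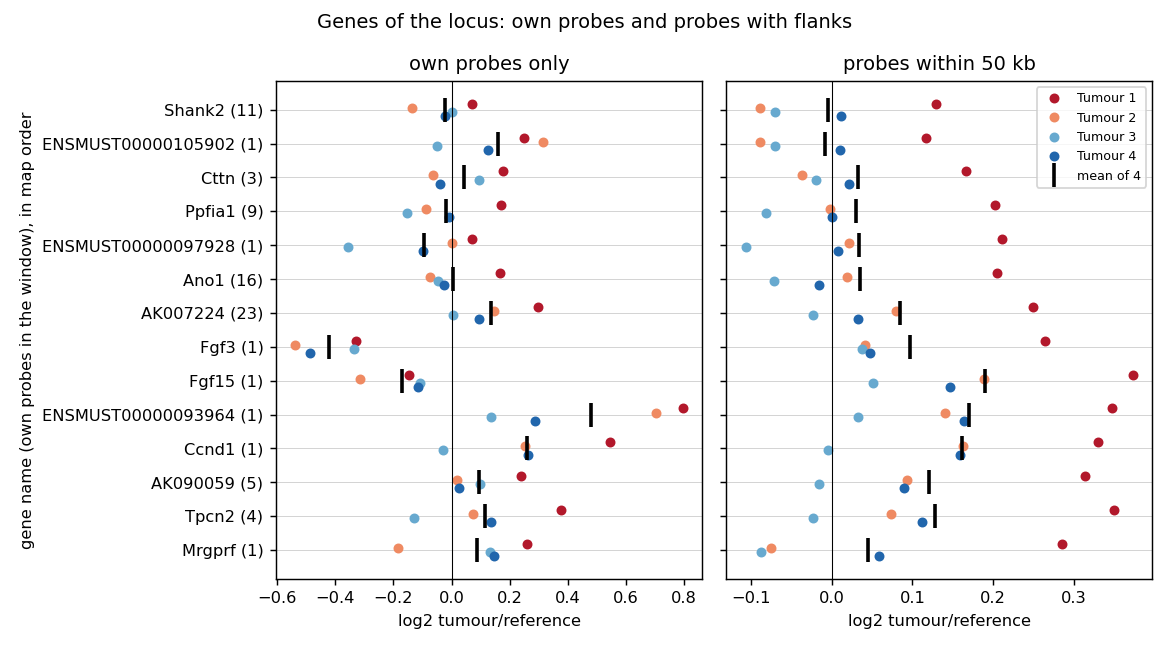
Log2 tumour over reference ratio of the 14 gene names of the locus in map order, with 1 dot per tumour and a bar at the mean of 4, from own probes only on the left (their number in brackets) and from all probes within 50 kb on the right. The Fgf15 dots are all below 0 on the left and all above 0 on the right, and tumour 1 is the highest dot of every gene on the right.

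The highest single position of the locus by its mean was the AK090059 probe, 299 kb from Ccnd1, and the next 3 were neighbours of Ccnd1. The run of 4 neighbouring probes with the highest mean, chosen from these values, covered chr7:152109234-152133980 and averaged 0.71, 0.55, 0.094 and 0.34 in tumours 1 to 4. The other 85 probes averaged 0.20, 0.0069, -0.036 and 0.020. The run holds the ENSMUST00000093964 probe at 0.80, 0.70, 0.14 and 0.29, the Ccnd1 probe, and 2 AK007224 probes at 0.83, 0.66, 0.16 and 0.34 and at 0.69, 0.60, 0.11 and 0.47. The Ccnd1 probe was the lowest of the 4 in every tumour. G and C made up 38.9% of the bases of the run on average, against 37.3% for the other 85 probes; the part of base composition in the run was not tested.

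Fgf3, a growth factor gene of the same family as Fgf15, had the lowest own value of the named genes. Its probe read -0.33, -0.54, -0.34 and -0.49 in tumours 1 to 4, below 0 in all of them (mean -0.42 ± 0.11, SD, n = 4), with a limma adjusted p of 0.055. The probes on either side of it, both named AK007224, read 0.45, 0.21, 0.19 and 0.26 on 1 side and 0.56, 0.47, -0.029 and 0.11 on the other. AK007224, a transcript name that recurs over 23 positions from the end of Ano1 to beyond Ccnd1, averaged 0.30, 0.15, 0.0042 and 0.094.

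Tumour 1 had the highest own-probe value of the 4 tumours for 12 of the 14 names, and the highest 50 kb value for all 14. Neighbours among the 14 names share flanking probes, so these are not separate readings. The median 50 kb value over all gene items was also highest in tumour 1, at 0.031, -0.0076, -0.031 and -0.015 in tumours 1 to 4. The share of all gene items that were highest in tumour 1 is not given here. Shank2, which encodes a scaffold protein of synapses, averaged 0.072, -0.14, 0.0030 and -0.022 over its 11 probes in the window. Cttn, which encodes the actin-binding protein cortactin, averaged 0.18, -0.062, 0.095 and -0.041 over 3 probes. Ppfia1, which encodes a liprin, averaged 0.17, -0.087, -0.15 and -0.010 over 9 probes, and was above 0 in tumour 1 alone.

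Ano1, which encodes a calcium-activated chloride channel, averaged 0.17, -0.073, -0.046 and -0.027 over 16 probes, also above 0 in tumour 1 alone. Tpcn2, which encodes an ion channel of lysosomes, averaged 0.38, 0.073, -0.13 and 0.13 over 4 probes. Mrgprf, an orphan receptor gene of the Mas-related family, had 1 probe, at 0.26, -0.19, 0.13 and 0.15. AK090059 averaged 0.24, 0.020, 0.10 and 0.024 over 5 probes, and the transcripts ENSMUST00000105902 and ENSMUST00000097928 had 1 probe each, with means of 0.16 and -0.094. For none of the 14 names did the 50 kb value pass an adjusted p under 0.05 (limma), and 3, Ccnd1, Fgf15 and ENSMUST00000093964, were higher in the tumour at an unadjusted p under 0.05, where 5.99% of all gene items were. Those 3 values rest on 15 probes, 8 of which enter all 3.

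Taken probe by probe, the locus held 1 position past an adjusted p under 0.05 in the fit across all probes, and 0.727% of all probes passed. That position, the AK090059 probe printed above, read 0.67, 0.57, 0.52 and 0.31 in tumours 1 to 4 (limma adjusted p = 0.044). At an unadjusted p under 0.05, 22 of the 89 positions were higher in the tumour (24.7%), where 13.8% of all probes were, and 8 were lower, where 15% of all probes were. The count of 22 was 7, 9, 33 and 12 without tumours 1, 2, 3 and 4. The matching share of all probes in those settings is not given here, so these counts are not read as a change in the locus. All probes past the adjusted threshold moved as well, from 1238 to 767, 137, 38199 and 186 without tumours 1, 2, 3 and 4. Positions above 0 in all 4 tumours made up 18.0% of the locus and 18.0% of all probes, and positions below 0 in all 4 made up 8.99% and 17.2%. Single neighbours could differ widely, as in a pair chosen after its values were seen: an Ano1 probe at chr7:151879178 read -0.47, -0.69, -0.13 and -0.53, and the Ano1 probe before it 0.49, 0.52, -0.055 and 0.21, so that the pair differed in sign in tumours 1, 2 and 4 and not in tumour 3. The count of positions past the adjusted threshold was 22 without tumour 3, when 22.4% of all probes passed, and 0 without any 1 of the other 3 tumours.

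The array design holds the base composition of its probes nearly constant, but the locus lay at the upper end. G and C made up 37.4% of its probe bases, against 36.7% ± 0.35 (SD over bins) for the mean of the other autosomal bins, 97.9% of which were lower. The ratio of autosomal bins followed this quantity in each tumour: over 2395 bins, Pearson's r was 0.31, 0.15, -0.40 and 0.21 in tumours 1 to 4, so tumour 3 ran the opposite way to the other 3. Over the same bins, r with the share of probes that carry a gene name was 0.21, 0.11, -0.30 and 0.24. That share was 87.6% in the locus, against a mean of 60.4% over the other autosomal bins. Bins of 1 array share its hybridisation, so these are descriptions. The array of tumour 3 also had the lowest reference signal, with a median green signal of 164.6, against 348.2 to 658.2 on the arrays of the other 3 tumours; its part in the opposite sign was not tested. In the fifth of autosomal bins with the most G and C the median ratio was 0.049, -0.0038, -0.030 and -0.0086, against -0.081, -0.058, 0.055 and -0.041 in the fifth with the least. Within the 89 probes of the locus itself r with the share of G and C was 0.14, 0.0059, 0.11 and 0.00048.

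**Figure D4:**
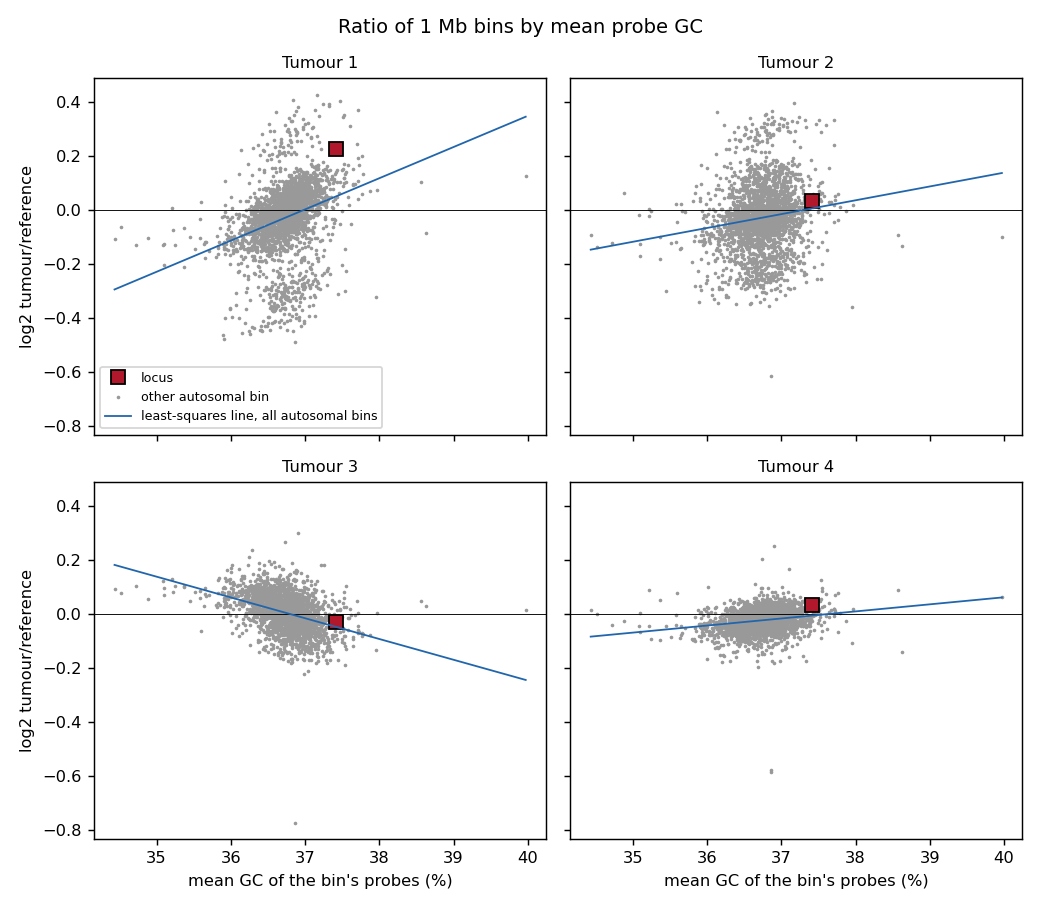
Log2 tumour over reference ratio of each autosomal 1 Mb bin against the mean share of G and C in its probes (%), with 1 panel per tumour; the square is the locus and the line is the least-squares line through all autosomal bins. The locus lies above the line in each panel, by 0.17 in tumour 1 and by 0.026, 0.018 and 0.041 in tumours 2, 3 and 4.

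Against bins of like composition the locus was again highest in tumour 1. The median of the 2027 other autosomal bins within 1 percentage point was 0.0022, -0.022, -0.0030 and -0.019 in tumours 1 to 4, which left the locus at 0.22, 0.053, -0.027 and 0.053 relative to them. The mean of these differences was 0.076 ± 0.11 (SD, n = 4), with a limma adjusted p of 0.47 (95% interval -0.040 to 0.19), an exact sign-flip p of 0.25 and 0% of 2546 bins past the test (309 had an unadjusted p under 0.05). Without tumour 1 it was 0.027 (adjusted p = 0.77). Of these bins 3.01%, 27.3%, 66.6% and 7.20% were higher than the locus in tumours 1, 2, 3 and 4. Off chromosomes 7, 9, 12 and 15, 2, 453, 1161 and 113 of the 1611 such bins were higher in tumours 1 to 4. Chromosome 15, left out of that count, held 61 of the 63 autosomal bins above the locus in tumour 1.

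A width of 1 point takes in 84.7% of the other autosomal bins. The planned match within 0.5 points gave a mean difference of 0.067 (limma adjusted p = 0.44). A still narrower match, within 0.1 points, was added after the data were seen. The bins within 1 point also lie mostly below the locus in G and C, as 97.9% of the other autosomal bins do. Among the 44 bins within 0.1 points the median was 0.082, 0.0097, -0.036 and -0.014 in tumours 1 to 4, and the locus stood 0.14, 0.022, 0.0060 and 0.048 above it. Its rank among those bins and itself was 5, 18, 21 and 4. The limma adjusted p of the mean difference, 0.055, was 0.43. With ratios corrected for the composition of all probes within 500 kb, the locus was at 0.13, -0.0059, 0.021 and 0.018, and 0.13, 0.044, 0.028 and 0.039 above the rest of chromosome 7 (mean 0.061, limma adjusted p = 0.23). In tumour 1 it was then still the highest bin of chromosome 7, with 104 autosomal bins above it, 7 of them off chromosome 15. The mean of the locus over tumours was 0.041 with this correction, against 0.065 without it. The correction and the matches used the bases of the probes alone. The composition of the genome around the probes was not available, so its part was not tested.

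**Figure D5:**
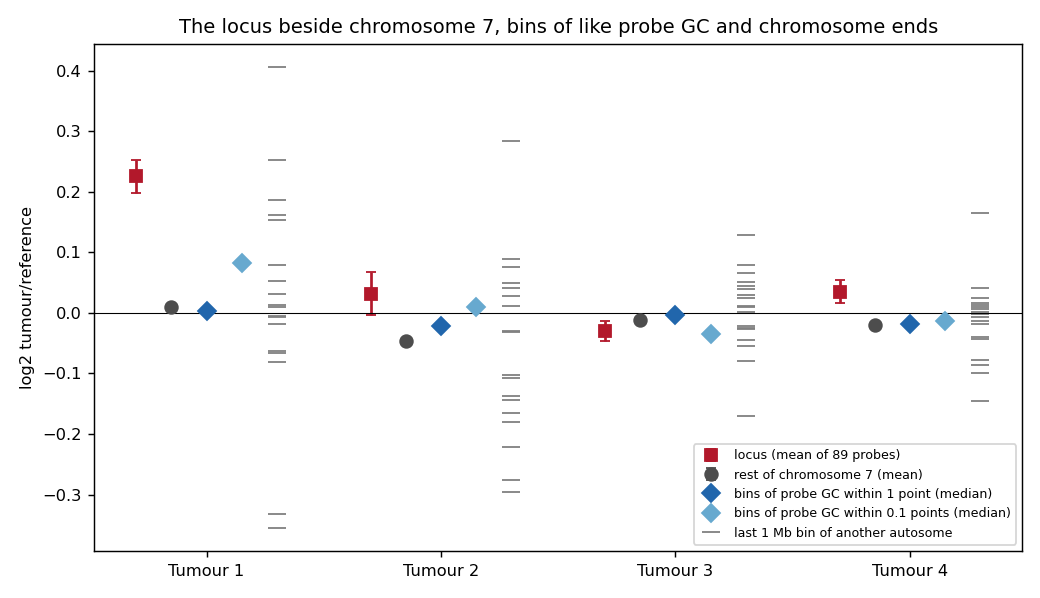
Log2 tumour over reference ratio per tumour of the locus (square, standard error over its 89 probes), the rest of chromosome 7 (circle, standard error over probes, within the symbol), the median of bins whose probe composition lies within 1 and within 0.1 points (diamonds), and the last 1 Mb bin of each of the other 18 autosomes (dashes). In tumour 1 the locus at 0.23 stands above all of these but 2 of the dashes.

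As a chromosome end, the locus was set beside the last 1 Mb bin of each of the other 18 autosomes. The median of those ends was 0.012, -0.067, 0.010 and -0.0044 in tumours 1 to 4. Of the 18 ends, 2, 5, 14 and 2 were higher than the locus. Relative to the rest of their own chromosomes, 1, 2, 10 and 2 of the 18 ends were higher than the locus was relative to chromosome 7. In tumour 1 the locus was above 0, and so were 10 of the 18 other ends.

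The bins on other autosomes with the pattern over 4 tumours most like the locus were chosen by the root mean square difference. They were chr4:153500001-154500000, at 0.17, 0.050, -0.059 and 0.030, chr17:34500001-35500000, at 0.19, 0.052, -0.073 and 0.070, and chr10:80500001-81500000, at 0.20, 0.060, -0.069 and 0.079. Their differences were 0.034, 0.034 and 0.036, and G and C made up 37.6%, 37.7% and 37.8% of their probes. Among 8450 gene names with at least 3 own probes on other autosomes, those most like the Ccnd1 gene value were Sh3tc1 on chromosome 5, Tcfe2a on chromosome 10 and AK145012 on chromosome 16, with differences of 0.040, 0.040 and 0.040. Sh3tc1 read 0.27, 0.20, -0.028 and 0.13 in tumours 1 to 4.

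Of the 15 mouse partners of genes near human CCND1, 12 could be read, and the other 3 (Oraov1, Fgf4 and Fadd) were not analysed here. None of the 12 passed an adjusted p under 0.05, and 2, Ccnd1 and Fgf15, were higher in the tumour at an unadjusted p under 0.05, where 5.99% of all gene items were. Of the 12, 11 had a mean above 0, where 47.6% of all gene items did, with a median over the 12 of 0.070, against -0.0047 over all gene items. Neighbours among the 12 share flanking probes, so these are not separate readings. Dhcr7, which encodes the last enzyme of cholesterol synthesis, and Nadsyn1, which makes NAD, lie before the window and had gene values of 0.28, 0.16, -0.030 and 0.085, and of 0.26, 0.088, -0.052 and 0.086.

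The partners of cyclin D1 elsewhere in the genome did not pass either. Of 18 genes of the D-type cyclin and RB axis 13 were read, 0 passed an adjusted p under 0.05, and 0 were higher and 3 lower in the tumour at an unadjusted p under 0.05, where 14.5% of all gene items were lower. Their median was -0.038. The highest means were those of Cdkn2a, which encodes inhibitors of the cyclin D kinases and of MDM2, at 0.045 ± 0.073, and of the transcription factor gene E2f3, at 0.017 ± 0.085. The lowest were those of Cdkn1a, the p21 gene, at -0.27 ± 0.13, and of Rbl1, a relative of the retinoblastoma gene, at -0.19 ± 0.066 (SD, n = 4 each; limma adjusted p = 0.19 for both).

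Of 14 genes of FGF15 signalling and bile acid synthesis 11 were read, 0 passed an adjusted p under 0.05, and 0 were higher and 1 lower at an unadjusted p under 0.05, where 5.99% of all gene items were higher and 14.5% lower. Their median was -0.012. The highest means were those of Fgf23, which encodes a hormone of phosphate balance, at 0.10 ± 0.11, and of Nr0b2, a nuclear receptor gene that represses Cyp7a1, at 0.057 ± 0.13. The lowest were those of Slc10a1, the bile acid uptake carrier of the hepatocyte, at -0.13 ± 0.070, and of the beta-Klotho gene Klb, at -0.076 ± 0.056 (SD, n = 4 each). Slc10a1 lies on chromosome 12 and was read from 7 probes with flanks. Whether its value departs from the rest of that chromosome was not tested.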

How the data were processed

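Tumour and reference DNA were compared on 4 arrays of 2 colours. The deposited values are log10 ratios of red over green made with Agilent Feature Extraction 10.7.3.1, per the submitters' processing notes, after background subtraction and linear dye scaling with no lowess term, per the file headers. Both channels' deposited intensity values served for the normexp alternative. The deposited log10 value table matched each array within 0.5% at all 180880 spots, with column medians of -0.0011, 0.0018, 0.00056 and 0.0032. Positions are mm9, per the file headers.

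Ratios were turned to log2, control spots and 93 to 126 outlier spots per array were left out, spots of 1 probe were averaged and arrays were centred on the autosomal median. Every locus probe was well above background in both channels on all 4 arrays. Noise between neighbouring probes was 0.26, 0.32, 0.16 and 0.17 in tumours 1 to 4; the number of arrays limits the precision. Bins of 1 Mb needed 5 probes, and segments came from penalised least squares with a penalty factor of 4. Tests were limma 3.58.1 in R 4.3.3 with Benjamini-Hochberg adjustment over all bins, genes or probes. The fit was also run on simulated data with independent noise in each row, which leaves out the probes that neighbouring genes share. Named genes are Ccnd1, Fgf15, all names in the window, 3 lists (for those elsewhere the highest and lowest means) and the 3 most alike genes; other single probes were singled out after their values were seen. The members and lists were chosen with earlier results of these data known. A slide was shared by tumours 1 and 4 only.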

Additional observations from a re-analysis of the deposited data

Results flagged for a closer look

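The Fgf3 gene value with 50 kb flanks was 0.26 in tumour 1 and 0.041, 0.038 and 0.047 in tumours 2, 3 and 4. Tumour 1 stood apart from the other 3, with a gap to its nearest neighbour of 0.960 of the whole range, above Dixon's 95% limit for 4 samples. It was the 1 value past that limit among 32 values of the locus and its genes, where chance alone flags about 1 in 20.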

How the results depend on the processing

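Locus mean, locus minus chromosome 7 and locus minus bins of like probe GC kept their direction in all 15, 15 and 20 alternatives, with ranges of 0.012 to 0.11, 0.038 to 0.13 and 0.027 to 0.12. The 1 that crossed the threshold was locus minus chromosome 7 without tumour 3, at 0.12 (limma adjusted p = 0.019). Leaving out each tumour gave 0.012 to 0.097, 0.038 to 0.12 and 0.027 to 0.11 for the 3 values, 0.11 to 0.22 for Ccnd1 and 0.13 to 0.24 for Fgf15. Counting the shared slide as 1 sample gave 0.044, 0.065 and 0.055, and leaving out the run of 4 probes 0.048, 0.066 and 0.060; both were added after the data were seen, as was a match on the share of named probes (0.076). Centring on the mode gave a locus mean of 0.044. Fgf15 turned to -0.17 with no flank, since 1 probe then gives the value. Ccnd1 stayed above 0 in all 14 alternatives (0.11 to 0.26). Locus probes past the test numbered 24 with normexp, 0 to 22 with a tumour left out and 1 otherwise; all probes past it numbered 40767 with normexp and 137 to 38199 with a tumour left out, and the cause was not tested. With 1 tumour left out, 0 to 717 bins minus their chromosome and 0 to 9 genes passed. Tumours called gained numbered 1 with normexp and with a threshold of 0.1, and 0 in the other 9 alternatives. Among gene values near 0, direction turned with the median over probes for Shank2 (0.034) and ENSMUST00000105902 (0.024). It also turned with 1 tumour left out, over ranges of -0.049 to 0.024 for Shank2, -0.050 to 0.019 for ENSMUST00000105902, -0.012 to 0.056 for Cttn, -0.028 to 0.067 for Ppfia1, -0.026 to 0.080 for ENSMUST00000097928, -0.022 to 0.070 for Ano1 and -0.035 to 0.090 for Mrgprf. The slide as a random block could not be estimated from 4 arrays on 3 slides. No paired analysis was possible because there is 1 group.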
